A study of Mus musculus with 3 samples.

Results

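The Fc gamma receptors, the TREM receptors and the ITAM adaptors that carry their signals were examined at 10 genes of the 55450 annotated genes in the tables: the activating receptors Fcgr1, Fcgr3 and Fcgr4, the inhibitory receptor Fcgr2b, the adaptors Fcer1g and Tyrobp, and the receptors Trem1, Trem2, Trem3 and Treml4. The genes were chosen by name and by their known place in these receptor complexes, not by a measured value. Earlier results of these data were known when this choice was made. RNA came from the chromatin fraction of C57BL/6J macrophages derived from bone marrow, primary cells that are grown in culture from marrow progenitors. Every culture received Lipid A, the Toll-like receptor 4 agonist of bacterial lipopolysaccharide, at 100 ng/ml for 12 h, was kept without it for 12 h after washing, and received 100 ng/ml again for 120 min. Ribosomal RNA was depleted, and 3 libraries were made as replicates of this 1 condition from 1 µg, 250 ng and 500 ng of RNA (replicates 1, 2 and 3). The labels give all 3 the same donor identifier and no age, so the SD between them may be technical. No untreated or once-stimulated cells were analysed here, so the values are levels and say nothing of a change with Lipid A.

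Fc gamma receptors bind the constant part of IgG and let macrophages take up antibody-coated particles. Activating members signal through Fcer1g, the common gamma chain, whose immunoreceptor tyrosine-based activation motif (ITAM) is phosphorylated by Src-family kinases and then binds the kinase Syk, while Fcgr2b carries its own inhibitory motif (ITIM), which recruits the phosphatase SHIP1, the product of Inpp5d. TREM receptors have short tails without such a motif and pair with Tyrobp (DAP12), the other ITAM adaptor of myeloid cells. Chromatin RNA is enriched in transcripts that are still being made or have not left the nucleus, so these levels are not those of the cell's mature mRNA.

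The motif stretches are shown because the adaptors are known for an ITAM and Fcgr2b for an ITIM. The ITIM pattern was not searched in the adaptors, so its absence from them was not tested. Both adaptor coding sequences held an ITAM, here a tyrosine codon (TAT or TAC), any pair of codons and a leucine or isoleucine codon, repeated 6 to 12 codons later, searched in frame on the coding strand. The sequences are GENCODE M21 transcripts of build mm10, given 5′ to 3′ with the tyrosine codons in capitals.
Fcer1g-201, chr1:171229889-171230072, minus strand, exons 4 and 5 of 5: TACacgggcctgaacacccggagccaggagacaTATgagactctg
Tyrobp, complete coding isoform, chr7:30415670-30417382, plus strand, exons 4 and 5 of 5: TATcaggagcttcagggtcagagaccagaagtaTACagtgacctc
Fcgr2b-201 (ITIM), chr1:170961071-170961088, minus strand, exon 8 of 8: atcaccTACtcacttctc
Each ITAM took 45 bases and spanned a splice junction, whereas the ITIM of Fcgr2b lay in its last exon. The ITAM pattern was found in 6.01% of 47852 complete coding sequences of the annotation, so a match alone is a description. The ITIM pattern, searched in the last 40% of the coding sequence of Fcgr2b only among these genes, was present in 27% of those sequences. None of the searched coding isoforms of the receptors held an ITAM. The coding sequences of Fcer1g and Tyrobp, 258 and 342 bases long, were 72.6% identical over 241 aligned bases. Bases set against a gap were left out of this share.

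Of the 10 genes, 7 had at least 1 TPM (abundance scaled to transcript length and library total) in every library, against 21.7% of all annotated genes and 42.1% of 21951 protein-coding genes. These were Fcgr1, Fcgr2b, Fcgr3, Fcgr4, Fcer1g, Tyrobp and Trem2, while Trem1, Trem3 and Treml4 were at or near 0. The median level of the 7 was 16.5 TPM, against 12.1 TPM for the 9236 protein-coding genes that passed the same threshold. Gene levels below are from the alignment-based tables unless the read-based quantification is named.

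**Figure D1:**
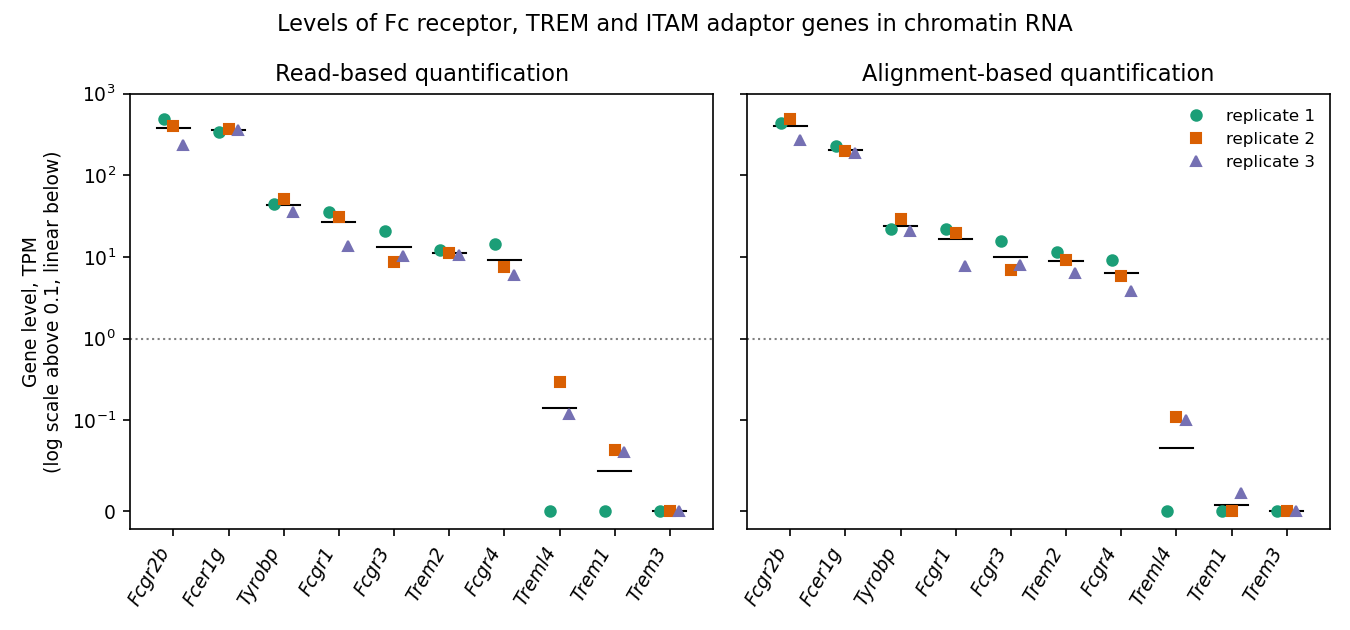
TPM of each gene in each library (points; bars are means of 3 libraries) in the read-based and the alignment-based quantification, on an axis that is logarithmic above 0.1 TPM and linear below, with a dotted line at 1 TPM. In both panels 7 genes lie above 1 TPM in every library, Fcgr2b and Fcer1g lie highest, and Trem1, Trem3 and Treml4 lie at or near 0.

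Among the activating receptors, Fcgr1, the high-affinity IgG receptor, had 22.1, 19.7 and 7.66 TPM in replicates 1, 2 and 3, a mean of 16.5 ± 7.72 TPM (SD, n = 3). Replicate 3 was low and the other libraries lay close together. Fcgr3, a low-affinity receptor for immune complexes, had 15.6, 6.90 and 7.89 TPM, a mean of 10.1 ± 4.74 TPM (SD, n = 3), with replicate 1 high. Fcgr4, which binds IgG2a and IgG2b in the mouse, had 9.29, 5.85 and 3.88 TPM, a mean of 6.34 ± 2.74 TPM (SD, n = 3). Its level was also highest in replicate 1, and the ranges of Fcgr3 and Fcgr4 overlapped.

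Fcgr2b, the inhibitory receptor, had 432, 494 and 267 TPM, a mean of 398 ± 118 TPM (SD, n = 3). It stood between percentiles 98.9 and 99.5 of expressed protein-coding genes, and replicate 3 was low. All 3 activating receptors together had 46.9, 32.5 and 19.4 TPM in replicates 1, 2 and 3, against 432, 494 and 267 TPM for Fcgr2b. The within-library ratio was -3.63 ± 0.38 on the log2(TPM + 0.1) scale (SD, n = 3), which placed Fcgr2b 12.4-fold above the sum in the geometric mean. Fcgr2b was the higher in 3 of 3 libraries, with p = 0.25 in an exact two-sided sign-flip test, the smallest that 3 libraries allow (0.25 after Benjamini-Hochberg adjustment over 8 pairs). Singly, Fcgr2b was 25.6-fold above Fcgr1, 40.2-fold above Fcgr3 and 63.6-fold above Fcgr4, with the same direction in every library and the same exact p of 0.25.

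The size of this gap moved with which transcripts were summed. The annotated isoforms also differ in intron sequence. Fcgr2b-205, Fcgr2b-206 and Fcgr2b-207 hold 1369, 397 and 214 bases inside introns of the coding isoforms. Fcgr3-203 holds 106 such bases, and the isoforms of Fcgr1 and Fcgr4 hold 0. The part of this uneven annotation in the gap was not tested. With protein-coding isoforms alone, the activating sum was 34.9, 23.6 and 16.3 TPM, against 83.8, 58.6 and 47.4 TPM for Fcgr2b, a mean log2 ratio of -1.37 ± 0.15 (SD, n = 3) or 2.58-fold more Fcgr2b. In the read-based quantification of all isoforms, the activating sum was 70.1, 47.1 and 30.0 TPM, against 486, 400 and 234 TPM for Fcgr2b, or 7.70-fold more Fcgr2b. By alignment, coding isoforms of Fcgr2b were 4.82-fold above those of Fcgr1, 13.4-fold above those of Fcgr3 and 10.2-fold above those of Fcgr4.

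**Figure D2:**
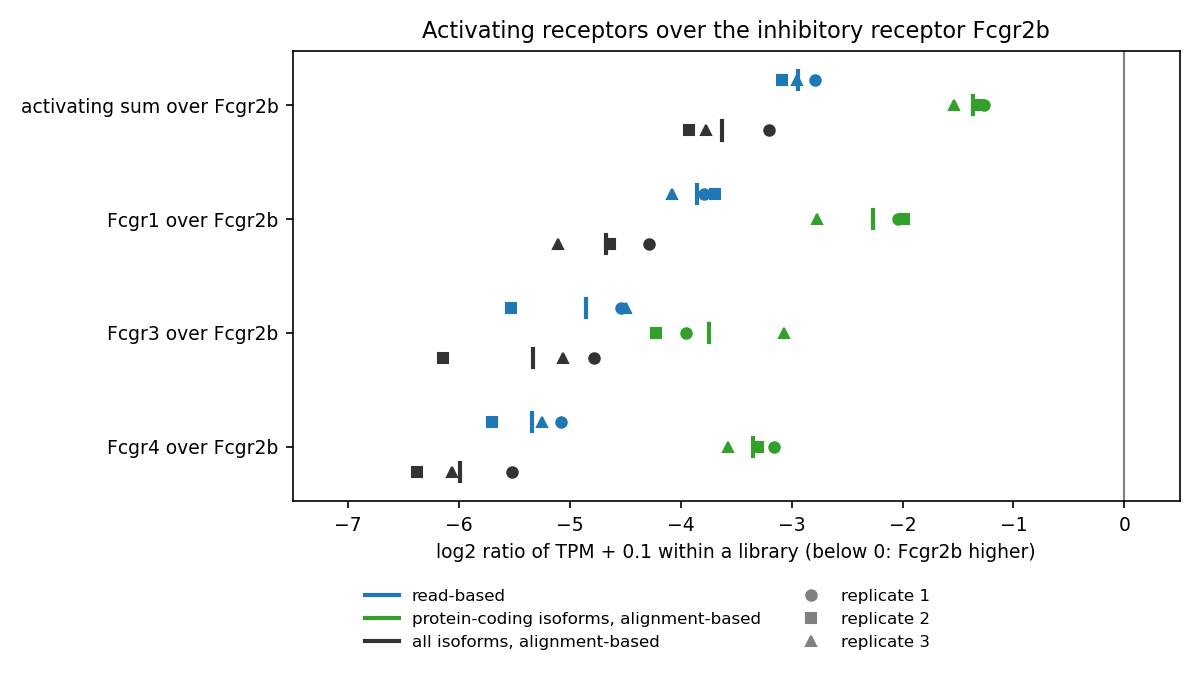
Within-library log2 ratio of TPM + 0.1 of the activating receptors over Fcgr2b (points are libraries, vertical marks are means), from read-based values, from protein-coding isoforms and from all isoforms. Every point lies below 0, and the coding-isoform ratios of the activating sum, mean -1.37, lie nearest to it.

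Fcgr2b is also expressed by B cells, and Fcgr3 by natural killer cells, so markers of other carriers of these receptors were read in the same libraries. All 7 macrophage markers were expressed, with a summed level of 996 to 1507 TPM per library, led by Adgre1 at 708 ± 128 TPM, Msr1 at 267 ± 79.7 TPM and Lyz2 at 129 ± 56.4 TPM (SD, n = 3). None of 5 B cell markers passed 1 TPM, their sum was 0.31 to 0.5 TPM, and the defining gene Pax5 had 0 counts. None of 5 natural killer cell markers passed (sum 0 to 0.06 TPM, with Klrb1c, Klra8, Gzma and Eomes at 0), nor did any of 6 mast cell or basophil markers (sum 0.05 to 0.07 TPM, with Fcer1a, Mcpt8, Tpsb2 and Cma1 at 0). Neutrophil markers, 0 of 8, summed to 0.3 to 1.27 TPM with Ly6g and Elane at 0, and dendritic cell markers, 0 of 4, to 0.75 to 1.55 TPM. Of 4 T cell markers only Cd5 passed, at 1.16 ± 0.19 TPM (SD, n = 3), with Cd3e at 0. By read-based values 2 of 4 T cell markers and 1 of 4 dendritic cell markers passed. None of the B cell, natural killer cell, mast cell or basophil, and neutrophil markers did. Cd3d averaged 14.1 TPM by reads, against 0.02 TPM by alignment, and Eomes 0.76 TPM, against 0. In RNA from whole cultures, fewer cells of a type and less RNA per cell cannot be told apart.

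Of the adaptors, Fcer1g had 228, 197 and 185 TPM, a mean of 203 ± 22.2 TPM (SD, n = 3), with the smallest coefficient of variation of the 7 expressed genes in TPM (10.9%). This rank did not hold in log2 CPM, which is not scaled to length: its SD was 0.60, against 0.27 for Trem2, 0.35 for Tyrobp and 0.55 for Fcgr2b, with Fcer1g effective lengths of 476, 343 and 355 bases. Tyrobp had 21.7, 28.7 and 20.6 TPM, a mean of 23.7 ± 4.41 TPM (SD, n = 3), on 386 counts over the 3 libraries. Their ranges did not overlap: Fcer1g was 8.60-fold above Tyrobp in the geometric mean, a log2 ratio of 3.10 ± 0.31 (SD, n = 3), and higher in 3 of 3 libraries (exact two-sided sign-flip test, p = 0.25, 0.25 adjusted over 8 pairs). With coding isoforms alone the log2 ratio of Fcer1g over Tyrobp was 2.76 ± 0.38 (SD, n = 3). Against the expressed protein-coding genes, Fcer1g lay between percentiles 97.4 and 98.4 and Tyrobp between 65.9 and 71.1.

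By distance of log2(TPM + 0.1) over the 3 libraries, the protein-coding genes most like Fcer1g were Sqstm1 (distance 0.16), Coro1b (0.17) and Chd4 (0.20). For Tyrobp they were Pdcd11 (0.08), Mfsd4a (0.09) and Foxn2 (0.09). With 3 libraries of 1 condition this measure mostly ranks genes of like level.

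Trem2, a receptor for lipids and lipoproteins on macrophages and microglia, was the TREM receptor with a clear level, at 11.5, 9.19 and 6.31 TPM, a mean of 9.00 ± 2.60 TPM (SD, n = 3). Trem1, which amplifies inflammatory signalling in myeloid cells, had 0, 0 and 1 counts, or 0, 0 and 0.02 TPM. At a floor of 3 counts it was at least 112-fold and at least 109-fold lower than Trem2 in replicates 1 and 2. In replicate 3 its single count was 0.336% of the Trem2 level, with a 95% exact Poisson interval of 0.00851% to 1.87% that covers counting error only. Trem3, a mouse receptor of the same cluster, had 0 counts in every library, which made it at least 39.7-, 35.1- and 26.9-fold lower than Trem2 in replicates 1, 2 and 3. Treml4 had 0, 1 and 2 counts, at least 36.6-fold below Trem2 in replicate 1 and at 1.2% and 1.54% of it in replicates 2 and 3. In the read-based tables Trem1 had 0, 5 and 5 estimated counts, Treml4 had 0, 4 and 3, and Trem3 had 0 throughout, so no level of these 3 genes passed 0.3 TPM in either quantification.

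All Fc gamma receptors together had 479, 527 and 286 TPM, against 11.5, 9.30 and 6.43 TPM for all TREM receptors, a log2 ratio of 5.54 ± 0.23 (SD, n = 3) with the same sign in 3 of 3 libraries (exact two-sided sign-flip test, p = 0.25). Fcgr2b made up 432, 494 and 267 TPM of that sum, and the activating receptors alone had 46.9, 32.5 and 19.4 TPM, against the same TREM levels. With coding isoforms alone the log2 ratio of all Fc gamma receptors over all TREM receptors was 4.01 ± 0.45 (SD, n = 3).

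With all annotated isoforms counted, the order from highest to lowest was Fcgr2b, Fcer1g, Tyrobp, Fcgr1, Fcgr3, Trem2, Fcgr4, Treml4, Trem1 and Trem3. Neighbours in this order had ranges that did not overlap at 3 steps, from Fcgr2b to Fcer1g, from Fcer1g to Tyrobp and from Fcgr4 to Treml4. From Tyrobp to Fcgr4 the ranges of neighbours overlapped, although Trem2 was above Fcgr4 within each of the 3 libraries, and the upper gene of each other pair was the higher in 2 of 3. By read-based levels, the ranges of Fcgr2b and Fcer1g overlapped, with Fcgr2b the higher in 2 of 3 libraries. Those of Tyrobp and Fcgr1 did not overlap by reads. With protein-coding isoforms alone, by alignment, Fcer1g had 191, 147 and 142 TPM, against 83.8, 58.6 and 47.4 TPM for Fcgr2b. Fcer1g was then the higher in 3 of 3 libraries, so the first step of the order was reversed.

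The libraries differed in these genes. Replicate 3 had the lowest TPM for 6 of the 7 expressed genes, all but Fcgr3, against 27.4% of expressed protein-coding genes. By CPM it was lowest for 5 of 7, against 28.1%, and by read-based TPM for 5 of 7, against 26.2%. Fcer1g was then lowest in replicate 2 by CPM and in replicate 1 by reads. Replicate 1 had the lowest TPM for 0 of the 7, although it was the lowest library for 63.6% of expressed protein-coding genes. For Fcgr1, Fcgr2b, Fcgr3 and Fcgr4, 4 of 7, 1 library lay over 1.5 times from both others, against 37.9% of expressed protein-coding genes. The median SD over libraries of log2 CPM (counts scaled to the library total) was 0.60 for the 7 genes and 0.24 for expressed protein-coding genes, and the separate SDs ran from 0.27 for Trem2 to 0.91 for Fcgr1. Replicate 1 held 10293545 expected counts, against 17820066 and 17548564 in replicates 2 and 3, and had the largest RNA input; the part of depth and input in these differences was not tested. The summed macrophage markers were likewise lowest in replicate 3, at 996 TPM.

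Most of the Fcgr2b signal lay outside its coding isoforms. Protein-coding isoforms held 19.4%, 11.9% and 17.7% of its TPM in replicates 1, 2 and 3, a mean of 16.3 ± 3.96% (SD, n = 3), against a median of 50.9% over 8647 expressed protein-coding genes with more than 1 isoform. The mean coding share of Fcgr2b was 17.3 ± 3.54% by read-based values (SD, n = 3). Isoforms annotated as retained intron held 48.7 ± 2.58%, and the processed transcript Fcgr2b-206 held 34.9 ± 1.37% (SD, n = 3). Fcgr2b-205, the highest isoform, had 168, 196 and 97.0 TPM and follows the gene from its 5′ part to inside intron 5, of which it covers 61.2% (1369 of 2236 bases). Fcgr2b-206 had 147, 180 and 91.9 TPM, starts inside intron 6 and runs into the last exon, so its bases include the ITIM stretch shown above although it has no annotated coding part. Fcgr2b-207 covers 17.3% of intron 2 and had 34.0, 59.6 and 30.6 TPM. Neither Fcgr2b-205 nor Fcgr2b-207 contains the ITIM bases.

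**Figure D3:**
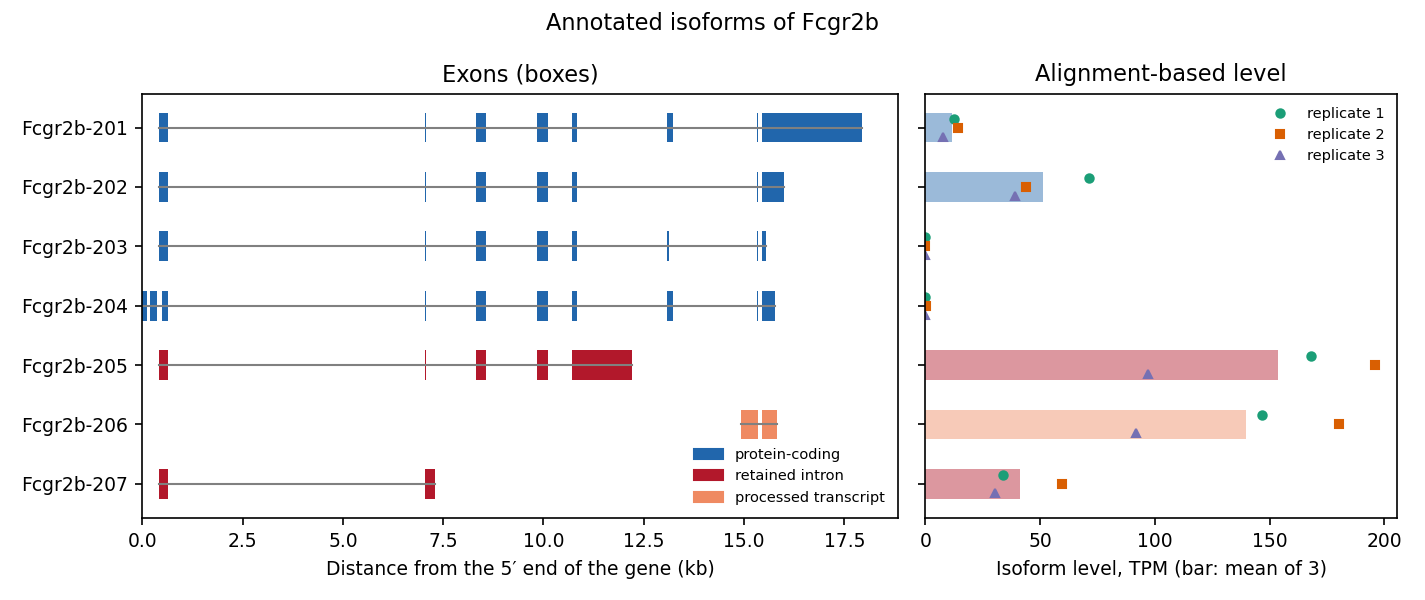
Exons of the annotated Fcgr2b isoforms by distance from the 5′ end of the gene in kb (left), and alignment-based TPM of each isoform (right; bars are means, points are the 3 libraries). Fcgr2b-205 and Fcgr2b-206, which extend into introns, lie above every coding isoform in every library, and of the coding isoforms Fcgr2b-202 is the highest.

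Coding isoforms of Fcgr2b differ by an exon of 141 bases that encodes part of the cytoplasmic tail. The form without it (b2) is known from macrophages and the form with it (b1) from B cells, so the exon and the junction that skips it are shown, with the downstream exon of the junction in capitals (mm10, minus strand).
Fcgr2b-201, exon 6, chr1:170963325-170963465: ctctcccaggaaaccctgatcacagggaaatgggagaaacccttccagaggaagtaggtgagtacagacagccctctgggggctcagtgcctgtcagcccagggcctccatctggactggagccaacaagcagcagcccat
Fcgr2b-202, junction of exons 5 and 6, chr1:170961219-170965716: aaaagcaggttccagACAATCCTCCTGATC
Fcgr2b-202, which lacks the exon, had 71.2, 43.9 and 39.3 TPM, against 12.6, 14.7 and 8.05 TPM for the isoforms with the full exon. By read-based values it made up 69.9%, 39.8% and 53.5% of the coding TPM, a mean of 54.4 ± 15.1% (SD, n = 3). By alignment-based values its share was 85.0%, 74.9% and 83.0%, a mean of 81.0 ± 5.36% (SD, n = 3), so the exon-lacking form was the larger in 2 of 3 libraries by reads and in 3 of 3 by alignment. The read-based tables gave Fcgr2b-204, which has the exon and other 5′ exons, 12.4, 12.0 and 7.03 TPM, and the alignment-based tables gave it 0, 0.26 and 0.08 TPM.

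Isoform make-up differed among the other genes. For Fcgr3, the retained-intron isoform Fcgr3-203 held 65.9%, 55.8% and 29.6% of TPM, a mean of 50.4 ± 18.7% (SD, n = 3), with replicate 3 low. Retained-intron isoforms held at least 50% of TPM in every library for 0 of the 4 expressed genes that have one (Fcgr2b, Fcgr3, Fcer1g and Trem2), against 33.4% of 5967 expressed protein-coding genes. Fcgr4 has a single annotated isoform. Fcgr1-202, annotated for nonsense-mediated decay, held 41.6 ± 8.15% of Fcgr1 by read-based values and 14.7 ± 9.36% by alignment-based values (SD, n = 3).

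The ITAM stretch was not equally present in all adaptor transcripts. Fcer1g-201, which encodes it, had 156, 80.9 and 87.4 TPM by reads, against 166, 116 and 114 TPM by alignment. Fcer1g-203 contains the same bases outside its annotated coding part and had 98.9, 163 and 165 TPM by reads, against 25.6, 30.8 and 28.0 TPM by alignment. Fcer1g-203 was thus above Fcer1g-201 in 2 of 3 libraries by reads and in 0 of 3 by alignment. Fcer1g-202, a retained-intron isoform that covers 86.9% of intron 2 and lacks the stretch, held 21.6 ± 5.02% of the gene's TPM (SD, n = 3). In Tyrobp, both coding isoforms contain the stretch in frame with their coding end. Their shares varied by library: the isoform shown above had 0, 4.62 and 10.6 TPM, and the other, whose start is not annotated, had 21.7, 23.6 and 10.1 TPM.

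Trem2 depended most on the quantification at the isoform level. Its coding isoforms held 8.0 ± 6.98% of TPM by read-based values, against 60 ± 14.7% by alignment-based values (SD, n = 3). Trem2-203, which retains all 1861 bases of intron 1, held 77.1 ± 7.46% and 22 ± 8.15% by the same measures. At the gene level the values lay closer, at 12.0, 11.1 and 10.6 TPM by reads and 11.5, 9.19 and 6.31 TPM by alignment.

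**Figure D4:**
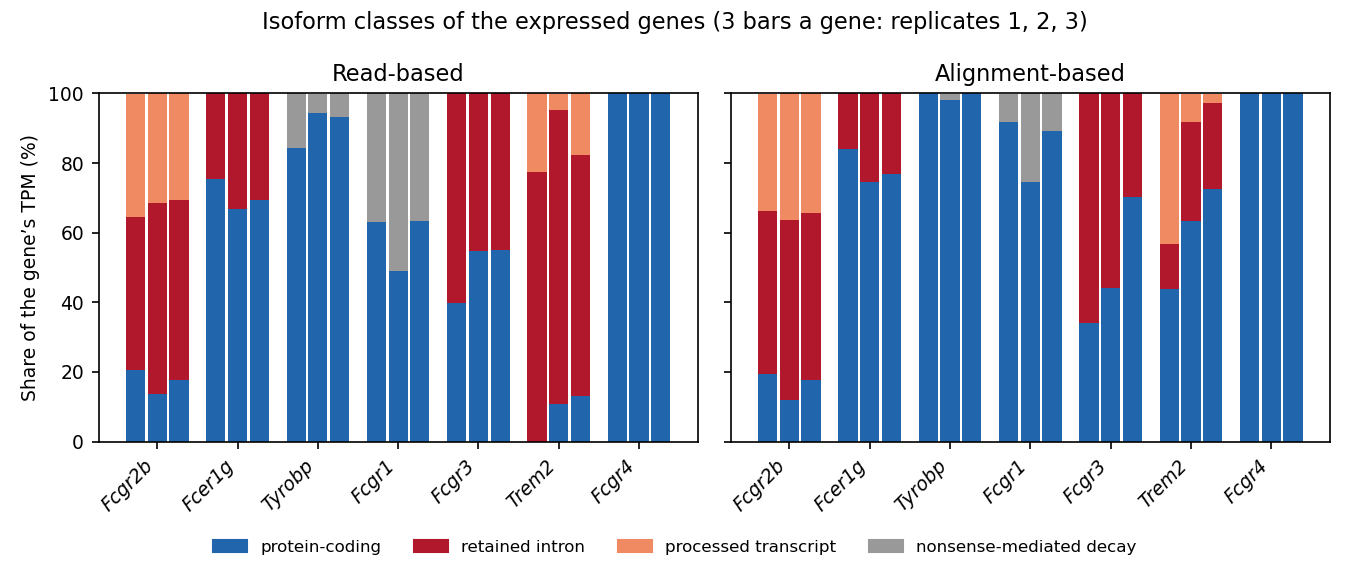
Share of each expressed gene's TPM held by each annotated isoform class, with 3 bars a gene for replicates 1, 2 and 3, in the read-based and the alignment-based quantification. Fcgr2b has the smallest coding share by alignment, with a mean of 16.3%, and Trem2 by reads, with a mean of 8.0%.

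Among expressed protein-coding genes, levels were mostly higher by reads than by alignment, with a median log2 ratio of 0.40 (a ratio of 1.32). Over the 7 expressed genes the median was 0.53. Read-based TPM was over 1.5 times the alignment-based TPM in every library for 2 of 7, Fcgr1 and Tyrobp, against 24.7% of expressed protein-coding genes, and under 1/1.5 of it for 0 of 7, against 0.141%. Fcgr1 had 35, 30.9 and 13.8 TPM by reads, against 22.1, 19.7 and 7.66 TPM by alignment. Tyrobp had 44.0, 51.1 and 35.8 TPM by reads, against 21.7, 28.7 and 20.6 TPM by alignment. Fcer1g stood at 339, 366 and 363 TPM by reads, with ratios of 1.49, 1.86 and 1.96. Fcgr2b was below that common shift, with ratios of 1.12, 0.81 and 0.876.

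Fcgr2b and Fcgr3 lie in the same cluster on chromosome 1 and share sequence, which could be split between them. Their coding sequences were 86.7% identical over 782 aligned bases, against 64.1% to 68.6% for the other pairs of Fc gamma receptors and 59.8% to 65.9% among TREM receptors. Of the 31-base words of Fcgr3, 13.4% also occurred in Fcgr2b and in no other annotated gene. Of those of Fcgr2b, 8.15% occurred elsewhere in the annotated transcripts, on either strand, and 4.15% occurred in Fcgr3. Fcgr1, Fcer1g, Tyrobp, Trem3 and Treml4 shared none with another gene. The longest identical coding run, bases 278 to 406 of the coding sequence of Fcgr2b-201 and bases 263 to 391 of that of the main coding isoform of Fcgr3, is given because reads inside it cannot be assigned by sequence.
Fcgr2b and Fcgr3, shared run of 129 bases, exons 3 and 4 of each: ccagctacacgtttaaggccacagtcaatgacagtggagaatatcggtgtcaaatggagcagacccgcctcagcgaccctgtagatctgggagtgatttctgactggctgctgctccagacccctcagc
In Fcgr2b this run spans chr1:170966674-170968081 and in Fcgr3 chr1:171054167-171057792, both on the minus strand of mm10. Fcgr3 had the lower level of the pair, and the part of shared reads in its value was not tested.

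The genes around these receptors were read from lists of known function. Of all protein-coding genes, 42.1% were expressed by alignment, the share to set beside each alignment-based count of expressed genes that follows. No such share was computed for the read-based counts. Of 27 genes of activating ITAM signalling, 24 were expressed and 22 had a level above that of the median expressed gene. Malt1, a scaffold protease of the CARD9 pathway, stood at 1232 ± 179 TPM, Syk, the kinase that docks on ITAMs, at 732 ± 143 TPM, and Prkcd, the kinase that activates CARD9, at 627 ± 69.5 TPM (SD, n = 3), while Zap70, the T cell counterpart of Syk, was at 0. Of 15 ITIM receptor and inhibitory signalling genes, 14 were expressed, led by Lilrb4a at 2059 ± 97.7 TPM, Sirpa at 683 ± 195 TPM and Pirb at 539 ± 70.5 TPM (SD, n = 3), all inhibitory receptors. Pecam1 was the lowest of that list at 1.00 ± 0.46 TPM (SD, n = 3).

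Partner receptors of the adaptors were expressed in 8 of 15 cases. Clec4e (Mincle), which pairs with Fcer1g, had 370 ± 73.9 TPM, Plxna1, a partner of Trem2, had 137 ± 49.5 TPM, and Clec4d had 49.4 ± 5.79 TPM (SD, n = 3). The platelet and natural killer cell receptors Gp6 and Ncr1 were among those near 0, Ncr1 being the lowest at 0.02 TPM. None of 7 other ITAM or YxxM adaptor genes passed 1 TPM in every library: Hcst (DAP10) had 2.31, 1.06 and 0.30 TPM, Cd247 averaged 0.80 TPM, Cd79a 0.20 TPM, and Cd3e was at 0. By read-based values 2 of these 7 passed, and Hcst averaged 9.51 TPM, against 1.22 TPM by alignment.

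Of 13 other Fc receptor genes, Trim21, the cytosolic antibody receptor, was the one expressed, at 161 ± 17.7 TPM (SD, n = 3). Fcrl5 and the neonatal receptor Fcgrt followed at 1.22 ± 0.27 and 1.22 ± 0.73 TPM (SD, n = 3), and Fcamr, Fcer1a, Fcmr, Fcrla and Pigr had 0 counts. By read-based values 4 of the 13 passed, and Fcgrt averaged 7.48 TPM. Among TREM-like and CD300 receptors, 8 of the 10 found were expressed, led by Cd300lf at 36.0 ± 12.1 TPM, Pilra at 11.9 ± 1.69 TPM and Pilrb1 at 7.32 ± 3.81 TPM (SD, n = 3), with Cd300lg at 0. Of 7 TREM ligand and sheddase genes 5 were expressed: the sheddase Adam17 had 58.1 ± 16.6 TPM, the ligand Apoe had 44.2 ± 18.8 TPM and Hmgb1 had 16.5 ± 3.88 TPM (SD, n = 3), while Clu was at 0.

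**Figure D5:**
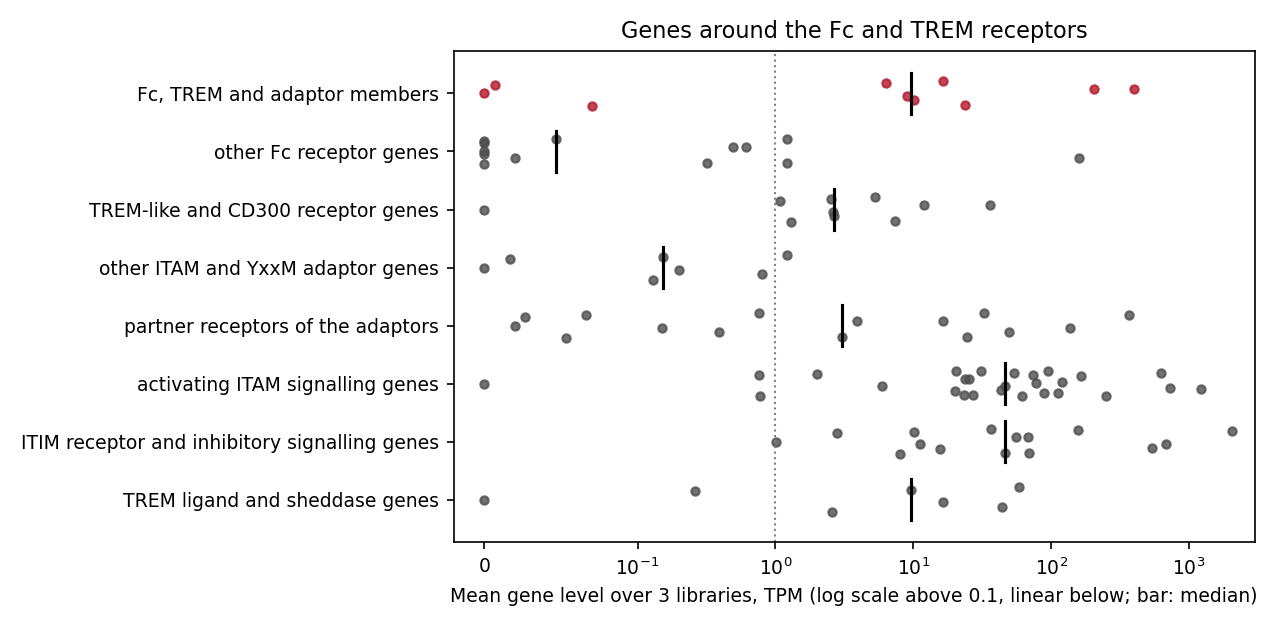
Mean TPM over 3 libraries of the 10 genes (red) and of 7 lists of related genes (grey), on an axis that is logarithmic above 0.1 TPM and linear below; bars are list medians and the dotted line is 1 TPM. The signalling lists lie mostly above 1 TPM, whereas the other Fc receptor genes and the other ITAM and YxxM adaptors lie mostly below it.

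In the genome, 28 protein-coding genes that are not among the 10 lay within 50 kb of 1 of them. Of these, 11 were expressed, near the share of 42.1% of all protein-coding genes. Usp21 at 39.5 ± 10.8 TPM, Ppox at 20.4 ± 5.18 TPM, B4galt3 at 17.1 ± 0.76 TPM and Tomm40l at 8.78 ± 2.19 TPM (SD, n = 3) were expressed neighbours of Fcer1g. Adamts4, Apoa2, Nr1i3 and Pcp4l1 averaged 1.51, 1.48, 0.84 and 0.07 TPM and did not reach 1 TPM in every library. Next to Tyrobp, Hcst lies 126 bases away on the opposite strand at 1.22 TPM, and Nfkbid, which encodes a nuclear regulator of NF-kappaB, had 19.7 ± 1.78 TPM (SD, n = 3). Aplp1, Kirrel2 and Nphs1, beyond it, were at 0.02, 0 and 0 TPM.

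The Trem cluster of chromosome 17 held genes at 0 and genes with a clear level. Trem1, Trem3 and Treml4, which lie side by side, were at or near 0, while Treml2 had 3.16, 2.63 and 2.02 TPM, B430306N03Rik had 12.6, 9.91 and 5.76 TPM and Trem2 had 11.5, 9.19 and 6.31 TPM. These 3 were highest in replicate 1 and lowest in replicate 3, a pattern whose share over all expressed genes was not computed. Treml1, 5768 bases from Trem2, averaged 1.29 TPM and was lowest in replicate 2. Nfya, a subunit of the CCAAT-binding factor on the other strand, had 77.2 ± 11.6 TPM (SD, n = 3) and was highest in replicate 2. Near Fcgr2b, Fcrlb and Fcrla were at 0.02 and 0 TPM, and Cfap126 near Fcgr3 averaged 0.50 TPM. The histone genes beside Fcgr1, which are near-identical to other copies so that their reads may be split, ran from 0 TPM for Hist2h3c1 to 27.5 TPM for Hist2h2aa2, with Hist2h2aa1 at 2.76 TPM and Hist2h3b, Hist2h2bb, Hist2h4 and Hist2h3c2 at 1.83, 1.75, 1.09 and 0.15 TPM. Gm38204, antisense to the 5′ part of Fcgr2b, had 4, 0 and 0 counts. Since strand use in counting is not given, reads of the pair cannot be told apart where they overlap.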

How the data were processed

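Total RNA-seq of the chromatin fraction was deposited as 3 libraries of 1 group. Per the file headers, the authors' gene and transcript tables hold expected counts and TPM under RSEM's column names, and another transcript table holds estimated counts and TPM under kallisto's. Notes deposited beside them name mm10 and GENCODE M21; the sources used here do not give versions, settings or strand use. They are called alignment-based and read-based; read-based gene TPM is the sum over transcripts. TPM is relative, so abundant RNAs lower all other values. Total expected counts were 10293545, 17820066 and 17548564, and 3 counts, the floor used for genes at 0, were 2.91e-05% of replicate 1.

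Here, levels were compared as within-library log2(TPM + 0.1) and tested over libraries by exact two-sided sign flips, Benjamini-Hochberg adjusted over 8 of 9 planned pairs. Trem3 over Trem1 was not computed, as both lay at or under the floor by alignment. As nothing says that the cultures were separate, p-values cover no more than the spread between these samples, possibly technical. Expected counts were rounded for TMM factors (edgeR 4.0.16) and size factors (DESeq2 1.42.0) on genes with at least 10 counts. Sequences came from GENCODE M21 transcripts, aligned with Biopython 1.88. The code was tested on simulated data. Members, lists and markers were chosen with earlier results of these data known. Named genes are all members, the 3 highest and the lowest of each list, coding genes within 50 kb, and 3 genes nearest in level to each adaptor; other names were chosen after their values were seen. A few of these genes are not reported here. Of the lists, 1 symbol had no match in the annotation. Alternatives were pseudocounts, thresholds, quantification, coding isoforms, CPM and leaving out each replicate.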

Additional observations from a re-analysis of the deposited data

How the results depend on the processing

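No paired analysis was possible because there is 1 group. Every ratio of the 8 tested pairs kept its direction under each alternative. Fcgr2b over Fcer1g, which reversed with coding isoforms, was not among these pairs. Of 86 alternative values, 81 kept their direction or, for counts, stayed within 1.5 times. The 5 that moved were all counts of genes. A kept direction says little of size. The log2 ratio of the activating receptors over Fcgr2b was -3.63, and -1.37 with protein-coding isoforms. The count of genes whose retained-intron isoforms hold at least 50% of TPM was 0; it was 2 at a share of 25% (Fcgr2b and Fcgr3, 2 of 4 against 72.2% of such genes), 1 by read-based values (Trem2, 1 of 4 against 34.4%), and 0 to 1 when 1 replicate was left out, the 1 being Fcgr3 without replicate 3. The 2 genes that differed between quantifications by 1.5-fold became 0 at 2-fold, and 2 to 3 without 1 replicate. The 4 genes with 1 library apart became 1 of 7 at 2-fold (Fcgr1), against 10.1% of expressed protein-coding genes; that count needs all 3 libraries, so none was left out. Leaving out 1 replicate moved the log2 ratio of Fcer1g over Tyrobp between 2.96 and 3.27, and that of the activating receptors over Fcgr2b between -3.85 and -3.49. Log2 ratios of Trem1 and Treml4 over Trem2 depend on the pseudocount, at -9.24 and -7.42 with 0.01 and -3.28 and -3.19 with 1, so bounds from counts are given instead. By CPM, which ignores length, Fcgr1 over Fcgr2b was -3.98. With 3 libraries the exact sign-flip test cannot go below 0.25. The 0 to 2 alignment-based counts for Trem1, Trem3 and Treml4 show only that no level above the floor was detectable by alignment. By reads, Trem1 had 5 estimated counts in replicates 2 and 3 and Treml4 had 4 in replicate 2, above the floor of 3 counts.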
